A study of Mus musculus with 4 samples.

Results

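The 9 genes described here encode 5 bone morphogenetic protein (BMP) ligands, Bmp2, Bmp3, Bmp4, Bmp5 and Bmp7, and 4 secreted BMP antagonists, Nog, Grem1, Chrdl1 and Sostdc1. They were taken by gene symbol from a table of 24972 genes, and all 9 were found and passed the filter on low values (17979 genes tested). The samples were mandibular dental arches, dissected from the lower jaws of mouse embryos on embryonic day 17.5, and their RNA was sequenced. The 2 libraries labelled Ascl5MutMut (18 and 14, called mutant here) came from embryos homozygous for a variant of Ascl5, a gene of the basic helix-loop-helix transcription factor family. The 2 libraries labelled Ascl5WTWT (15 and 20, called wild type) served as the control group of the study. Age and tissue are the same in both genotypes. The sources used here do not give the strain, what the variant changes in the gene, or how many embryos a library holds. The labels only list the libraries as separate samples, so the p-values reflect spread among libraries that may in part be technical.

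BMPs are secreted dimers that bind paired type I and type II serine/threonine kinase receptors, which phosphorylate Smad1, Smad5 and Smad9. These join Smad4, enter the nucleus and act on genes such as the Id family and Msx1 and Msx2. Secreted antagonists bind the ligands outside the cell and keep them from their receptors. In mouse teeth, Bmp4 and Bmp2 are signals of dental mesenchyme and epithelium, and loss of the antagonist Sostdc1 gives extra teeth.

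The RefSeq promoter table of GRCm38.p6 held Bmp4, Bmp5 and Grem1. Bmp2, Bmp3, Bmp7, Nog, Chrdl1 and Sostdc1 had no entry. The 250 bases before the start of each of these 3 are shown. Bmp4 and Bmp5 were ligands with lower values in both mutant libraries, and Grem1 had the smallest difference of the 9. Capitals mark CANNTG, the E-box hexamer bound by basic helix-loop-helix factors as a class, which reads the same on both strands and was searched with overlaps allowed.
Bmp4: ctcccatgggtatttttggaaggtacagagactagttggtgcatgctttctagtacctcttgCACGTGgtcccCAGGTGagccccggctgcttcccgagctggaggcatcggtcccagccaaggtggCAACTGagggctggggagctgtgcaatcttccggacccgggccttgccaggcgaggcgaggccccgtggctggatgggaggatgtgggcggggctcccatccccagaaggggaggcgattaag
Bmp5: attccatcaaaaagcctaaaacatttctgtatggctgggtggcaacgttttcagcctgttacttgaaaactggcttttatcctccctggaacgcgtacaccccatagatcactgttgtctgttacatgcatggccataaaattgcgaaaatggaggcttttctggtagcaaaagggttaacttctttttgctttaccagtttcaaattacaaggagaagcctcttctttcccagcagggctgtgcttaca
Grem1: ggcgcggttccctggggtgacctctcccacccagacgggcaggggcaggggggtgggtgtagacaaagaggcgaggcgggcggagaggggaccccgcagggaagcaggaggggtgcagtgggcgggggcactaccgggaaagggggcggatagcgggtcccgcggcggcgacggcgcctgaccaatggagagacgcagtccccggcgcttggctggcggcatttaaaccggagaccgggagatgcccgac
The Bmp4 window (chr14:46390670-46390919, minus strand) held 3 E-boxes and 63.2% G and C. The Bmp5 window (chr9:75775115-75775364, plus strand; 42.8% G and C) and the Grem1 window (chr2:113758649-113758898, minus strand; 72.0% G and C) held 0. Of 32851 promoter windows of the same length, 66.2% held at least 1 E-box and 12.2% held 3 or more. These matches describe letters in a window and do not show binding.

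The normalized counts summed to between 22134483 and 22578580 per library. Xist, transcribed from the inactive X chromosome, was at 7.64 and 5.005 in mutant libraries 18 and 14, against 38619 and 12.7 in wild-type libraries 15 and 20. Y-linked Ddx3y was listed at 0 in wild-type library 15 and lay between 2382 and 3027 in the other 3 libraries. Wild-type library 15 thus differed from the rest in sex, and each comparison without it is one within a single sex. On the first principal component over all tested genes, mutant library 14 lay at 71.2 and mutant library 18 at -13.6, beside wild-type library 15 at -17.7 and wild-type library 20 at -39.9. Ascl5 itself was at 10.6 and 12.1 normalized counts in mutant libraries, against 21.8 and 37.3 in wild type. The 8 dental mesenchyme and 8 dental epithelium markers were all above 0 in all 4 libraries. Keratinocyte, skeletal muscle and endothelium markers were above 0 in all 4 libraries too, so this does not single out the labelled tissue.

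Mean levels of all 9 genes were lower in mutant than in wild-type libraries, by small amounts, and none passed the test over all genes. Values are normalized counts, with means ± SD (n = 2 per genotype), and log2 fold changes are mutant over wild type with 95% intervals from limma. With Benjamini-Hochberg adjustment at 0.05, 0 of the 9 genes passed (limma, adjusted p = 0.9999 for each), beside 0.0111% of all tested genes (2 of 17979). At an unadjusted p under 0.05 there was 1 member, Sostdc1, beside 4.27% of all tested genes. For Bmp4, Bmp5, Nog and Sostdc1 (4 of the 9) the mutant libraries were both below the wild-type libraries, and for 0 members both above. Over all tested genes, 14% lay lower and 13.4% higher without overlap. In the other 5 members the genotypes overlapped. The smallest p that an exact permutation test (two-sided) allows for a single gene in this design is 0.333. In whole tissue, fewer cells of a type and less RNA per cell cannot be told apart.

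**Figure D1:**
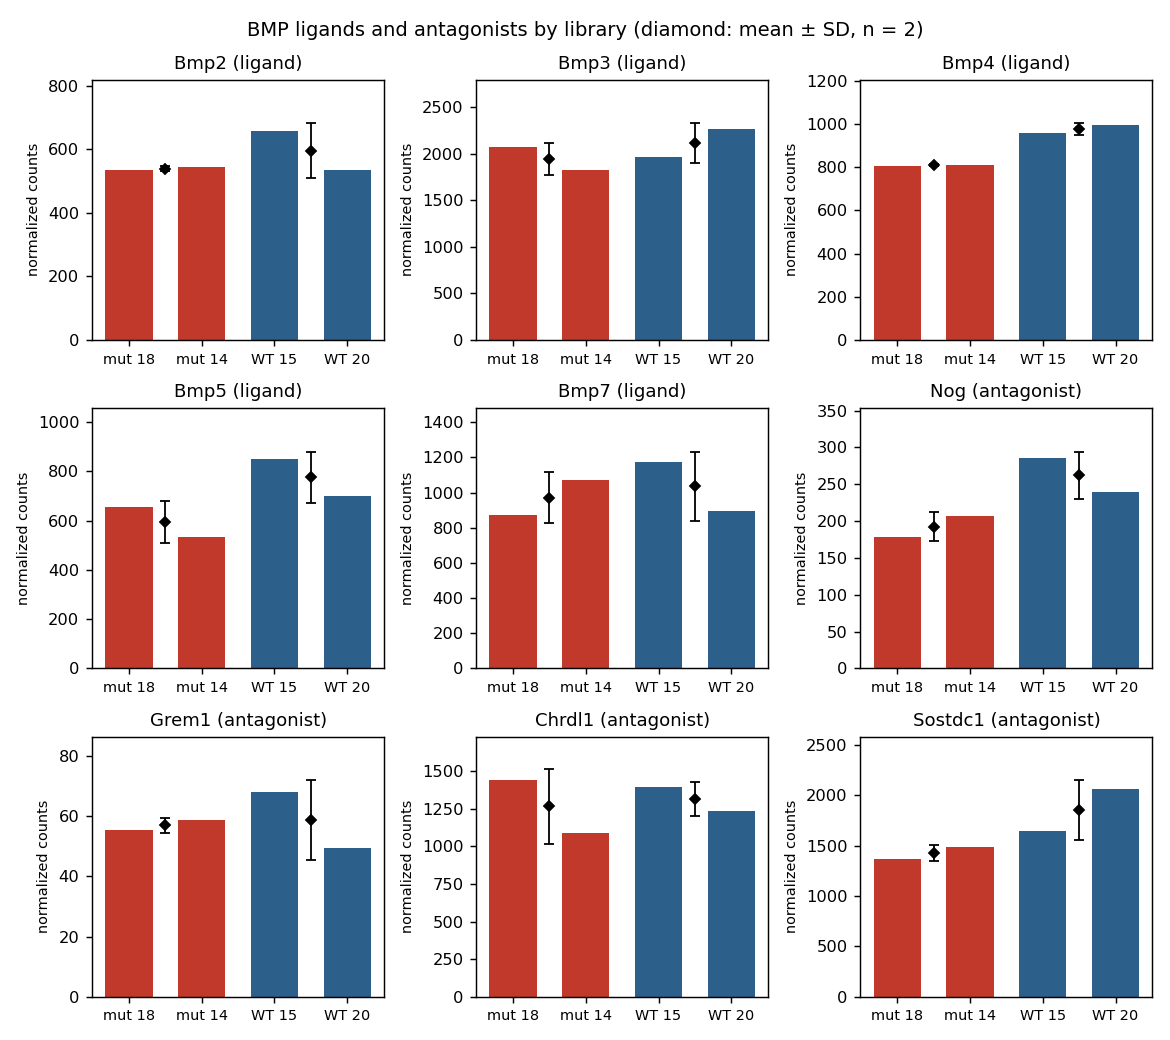
Normalized counts (vertical axes, each from 0) of the 5 ligands and 4 antagonists in mutant libraries 18 and 14 (red bars) and wild-type libraries 15 and 20 (blue bars); diamonds and error bars are the mean ± SD (n = 2). Only Bmp4, Bmp5, Nog and Sostdc1 have both red bars below both blue bars.

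Among the ligands, Bmp4, a signal of the tooth germ needed for its early growth, lay on chromosome 14 (46383520 to 46390669, GRCm38). It was at 805 and 812 normalized counts in mutant libraries 18 and 14, against 957 and 996 in wild-type libraries 15 and 20. The 2 mutant values were nearly equal, and the gap between genotypes exceeded the range within either. Bmp4 averaged 809 ± 5.14 in mutant and 977 ± 27.3 in wild type, a log2 fold change of -0.27 (interval -0.59 to 0.041). The unadjusted p was 0.08 (limma, adjusted p = 0.9999). An antisense gene, Gm15222, overlaps the span of Bmp4, introns included, over 1764 bases in the GENCODE annotation. Gm15222 had no value in the data. Whether exons overlap was not examined. The authors' strand setting is not stated, so reads from both genes may be mixed.

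Bmp5, a ligand known in mice from the short ear skeletal mutant, spans chromosome 9 from 75775364 to 75900310. It was at 655 and 536 normalized counts in mutant libraries 18 and 14, against 850.1 and 701 in wild-type libraries 15 and 20. Library 14 was the lowest and library 15 the highest, and mutant library 18 lay close below wild-type library 20. Means were 595 ± 84.3 in mutant and 776 ± 105 in wild type, a log2 fold change of -0.38 (interval -0.79 to 0.023; limma, unadjusted p = 0.0612, adjusted p = 0.9999). Each range within a genotype was 0.29 (mutant) and 0.28 (wild type) on the log2 scale. The span of Bmp5, introns included, overlaps an antisense gene, Gm26903 (2468 bases), and a gene on its own strand, Gm47723 (1454 bases). Neither had a value in the data, and whether exons overlap was not examined. Where exons overlap, counting by strand would not separate Bmp5 from Gm47723.

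Bmp2, which acts in tooth and bone formation, lies on chromosome 2 (133552159 to 133562885). It was at 534 and 545 in mutant libraries 18 and 14, against 657 and 535 in wild-type libraries 15 and 20. Both mutant libraries and wild-type library 20 lay within a narrow band, and wild-type library 15 alone was higher. The log2 fold change of -0.14 (interval -0.52 to 0.25) became 0.012 without that library.

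Bmp7, on the same chromosome (172868012 to 172940321) and active in tooth and kidney development, was at 870.2 and 1073 in mutant libraries 18 and 14, against 1175 and 895 in wild-type libraries 15 and 20. The range within wild type was 0.39 on the log2 scale, above the genotype difference of -0.086 (interval -0.51 to 0.34). That difference changed sign without wild-type library 15 (0.11) and without mutant library 18 (0.066).

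Bmp3, an atypical member of the family that restrains bone formation in mice, lies on chromosome 5 (98854415 to 98884396). It was at 2068 and 1822 normalized counts in mutant libraries 18 and 14, against 1965 and 2267 in wild-type libraries 15 and 20. The genotypes overlapped, with a log2 fold change of -0.12 (interval -0.45 to 0.21).

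Among the antagonists, Nog encodes noggin, which binds BMP dimers and masks their receptor-binding surfaces, and lies on chromosome 11 (89300638 to 89302332). It was at 178 and 206 normalized counts in mutant libraries 18 and 14, against 285 and 239 in wild-type libraries 15 and 20. The highest mutant value lay below the lowest wild-type value. Nog averaged 192 ± 19.9 in mutant and 262 ± 32.2 in wild type. Its log2 fold change, -0.44 (interval -0.92 to 0.035; limma, unadjusted p = 0.065, adjusted p = 0.9999), was the most negative of the 9.

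Sostdc1, which encodes ectodin, an antagonist of both BMP and Wnt signalling, lies on chromosome 12 (36314139 to 36318452). It was at 1372 and 1489 in mutant libraries 18 and 14, against 1649 and 2067 in wild-type libraries 15 and 20. Wild-type library 20 stood above the rest, while library 15 was nearer to the mutant libraries. Means were 1430.3 ± 82.4 in mutant and 1858 ± 295 in wild type, a log2 fold change of -0.37 (interval -0.73 to -0.012; limma, unadjusted p = 0.0443, adjusted p = 0.9999). It ranked 699th of all tested genes by p and was the only member whose unadjusted interval did not include 0. Without wild-type library 20 the log2 fold change was -0.21, and without wild-type library 15 it was -0.53.

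Chrdl1, a chordin-like antagonist on chromosome X (143285674 to 143394262), was at 1440 and 1089 in mutant libraries 18 and 14, against 1394 and 1231 in wild-type libraries 15 and 20. Its 2 mutant libraries held the highest and the lowest value of the 4, with a log2 fold change of -0.065 (interval -0.46 to 0.33). Without mutant library 14 the value was 0.14, and without wild-type library 15 it was 0.025.

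Grem1 encodes gremlin 1, an antagonist known from limb bud development, and lies on chromosome 2 (113746164 to 113758646). It was the lowest member, also per kilobase, at 55.2 and 58.8 in mutant libraries 18 and 14, against 68.1 and 49.4 in wild-type libraries 15 and 20. Both mutant values lay between the wild-type values. Its log2 fold change of -0.026 had the widest interval of the 9 (-0.77 to 0.72). It was 0.20 without wild-type library 15 and 0.019 without mutant library 18.

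**Figure D2:**
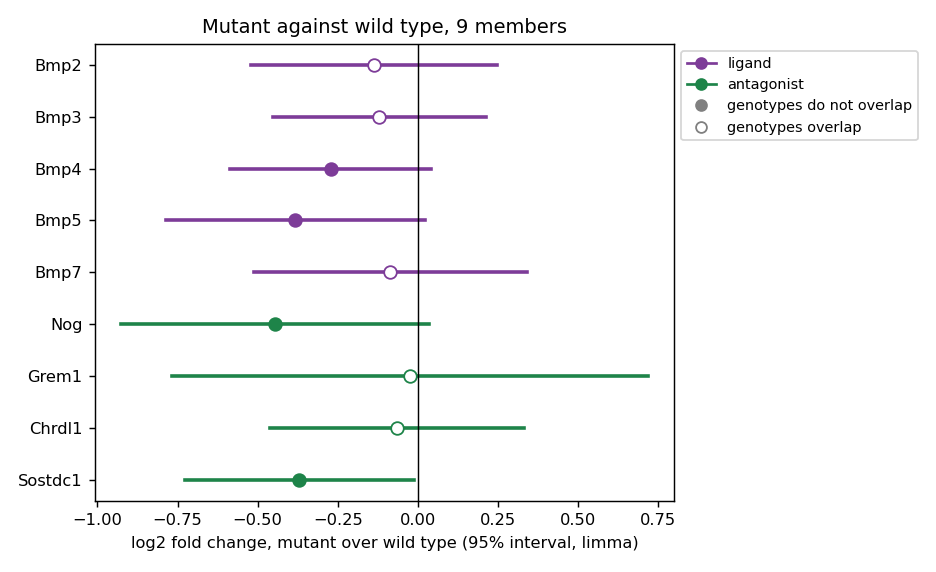
Log2 fold change of each member, mutant over wild type (horizontal axis), with its 95% interval from limma (n = 2 per genotype); filled points are members whose genotypes do not overlap. Every point lies left of 0, between -0.44 (Nog) and -0.026 (Grem1), and the interval includes 0 for 8 of the 9.

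The shared direction depended on which library was left out. All 9 members were lower in mutant without wild-type library 20, 8 without mutant library 14, 7 without mutant library 18 and 5 without wild-type library 15. Bmp3, Bmp4, Bmp5, Nog and Sostdc1 were lower in each of these 4 fits. For Bmp4, Bmp5, Nog and Sostdc1, whose genotypes did not overlap, leaving out a library could not change the direction. The count of members lower without overlap was 6 without mutant library 18, 6 without mutant library 14, 5 without wild-type library 15 and 7 without wild-type library 20. With 1 library on one side overlap is less likely by construction, and over all genes the share was between 30.6% and 33.1% in these fits. Wild-type library 15 held the highest value of the 4 libraries in 5 members, and wild-type library 20 in 3. Mutant library 18 held the lowest value in 5 members and mutant library 14 in 3.

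The median log2 fold change was -0.14 for the 5 ligands and -0.22 for the 4 antagonists, beside 0.0025 for all tested genes. The ligand median was -0.28 without wild-type library 20, -0.24 without mutant library 14, -0.22 without wild-type library 15 and -0.21 without mutant library 18. The range of the antagonist median over the same fits was -0.29 to -0.15.

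Levels were compared between genes as normalized counts per kilobase of exon, with exon lengths from GENCODE M21. Sostdc1 was the most abundant of the 9 transcripts on this scale, at 803 ± 46.3 in mutant and 1043 ± 166 in wild type, and Bmp4 was the most abundant ligand, at 360 ± 2.28 in mutant and 435 ± 12.2 in wild type. Bmp3 (263 ± 23.5 in mutant, 286 ± 28.9 in wild type) and Bmp7 (242 ± 35.7 in mutant, 258 ± 49.3 in wild type) followed, with libraries that overlapped between the 2 genes in each genotype. Chrdl1 was at 187 ± 36.6 in mutant and 194 ± 17.0 in wild type. Bmp5 was at 148 ± 20.9 in mutant and 193 ± 26.2 in wild type, and Bmp2 at 152 ± 2.11 in mutant and 168 ± 24.3 in wild type. Nog was at 113 ± 11.7 in mutant and 155 ± 19.0 in wild type. In wild type, the neighbours from Chrdl1 down to Nog overlapped pairwise. Grem1 was far below, at 13.7 ± 0.60 in mutant and 14.2 ± 3.19 in wild type. The order of the 9 was the same in both genotypes apart from Bmp5 and Bmp2, whose libraries overlapped.

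Summed over the 5 ligands, the level per kilobase was 1167 and 1161 in mutant libraries 18 and 14, against 1380 and 1297 in wild-type libraries 15 and 20. Summed over the 4 antagonists it reached 1102 and 1133 in mutant libraries, against 1317 and 1496 in wild-type libraries. Both sums were lower in both mutant libraries. Sostdc1 made up 69.9% and 73.8% of the antagonist sum in mutant libraries 18 and 14, against 70.3% and 77.6% in wild-type libraries 15 and 20. Bmp4 made up 30.7% and 31.1% of the ligand sum in mutant libraries, against 30.9% and 34.2% in wild-type libraries.

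**Figure D3:**
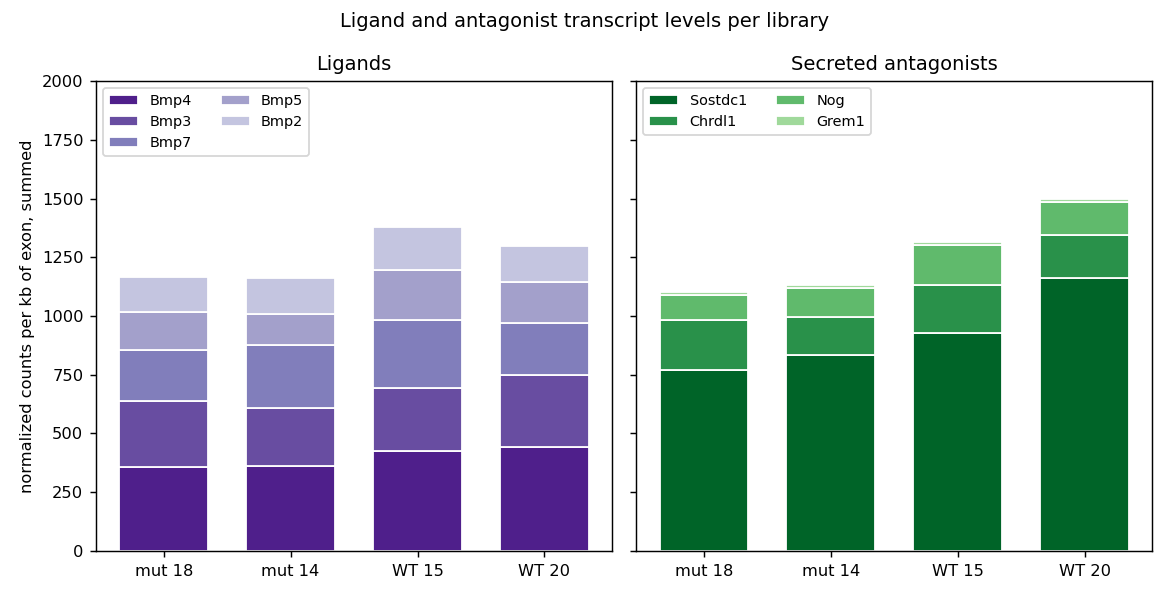
Normalized counts per kilobase of exon (vertical axis, from 0), stacked by gene, for ligands (left) and secreted antagonists (right) in mutant libraries 18 and 14 and wild-type libraries 15 and 20. The mutant sums are lower for both classes, and Sostdc1 fills most of each antagonist bar.

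The ratio of ligands to antagonists differed little between genotypes. The summed level of ligands per kilobase over that of antagonists was 1.06 and 1.02 in mutant libraries 18 and 14, against 1.05 and 0.867 in wild-type libraries 15 and 20. Wild-type library 20 stood apart with the lowest ratio, and wild-type library 15 lay between the mutant values, so the genotypes overlapped. With each gene given equal weight on the log2 scale, the ligand mean minus the antagonist mean was 1.22 and 1.19 in mutant libraries, against 1.18 in each wild-type library. On this measure both mutant libraries lay above both wild-type libraries, by a small amount. The difference, mutant minus wild type, was 0.027, and 0.064 with quantile normalization, 0.077 with medians over members and 0.13 for the log2 ratio of summed levels per kilobase. It was 0.012 without mutant library 18 and 0.042 without mutant library 14. No p is given for these scores, because the members were chosen with results known.

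Of the 20 ratios of 1 ligand to 1 antagonist, 3 were higher and 2 lower in mutant without overlap, and 15 overlapped. For single genes over the whole table, 13.4% lay higher and 14% lower without overlap. No such share was computed for ratios of gene pairs. The 20 ratios share genes, so they are not separate cases, and the count singles out no pair. The ratio of Bmp4 to Nog, per kilobase, was 3.40 and 2.97 in mutant libraries 18 and 14, against 2.53 and 3.14 in wild-type libraries 15 and 20. That of Bmp4 to Sostdc1 was 0.465 and 0.432 in mutant libraries, against 0.460 and 0.382 in wild-type libraries. Both ratios overlapped between genotypes.

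The 9 profiles over the 4 libraries were compared by the Euclidean distance between log2 values centred on each gene's own mean. Bmp4 and Sostdc1 were each other's nearest member (distance 0.23), and Nog was also nearest to Bmp4 (0.31). Bmp2 and Grem1 were each other's nearest (0.16), and Bmp7 was nearest to Grem1 (0.17), all 3 being highest in wild-type library 15. Among 13070 other genes with a mean of at least 50, those among the nearest were Arrb1 for Bmp4 (distance 0.031), Intu and Kcnj11 for Bmp5 (0.052 and 0.057), Wfikkn2 and Prkg2 for Nog (0.045 and 0.049) and Gsg1l and Tpst2 for Sostdc1 (0.029 and 0.039). These distances rest on 4 libraries and are given as a description.

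Other genes of the pathway were taken from lists by role. None of the 47 tested genes in these 7 lists passed the threshold (limma, over all genes). At an unadjusted p under 0.05 there were 2, both lower in mutant, Gdf7 and Msx2, beside 1.15% of all tested genes lower at that p.

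Of the other BMP and growth differentiation factor (GDF) ligands, 8 of 10 were tested, with a median log2 fold change of -0.088 (0.066 without wild-type library 15), 5 lower and 3 higher. Gdf7 was low, at 8.90 and 10.8 in mutant libraries 18 and 14 against 26.4 and 23.04 in wild-type libraries 15 and 20 (log2 fold change -1.29; limma, unadjusted p = 0.0267, adjusted p = 0.9876). Bmp8a was at 195 and 160.2 in mutant libraries, against 279.5 and 221 in wild-type libraries. Bmp8b lay the other way, at 37.2 and 31.4 in mutant libraries, against 18.8 in each wild-type library. Bmp8a and Bmp8b are close copies of one another, so their values are uncertain where reads could be split between them. Bmp10 was listed at 0 in all 4 libraries, and Gdf2 did not pass the filter on low values.

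The 12 other secreted BMP-binding proteins had a median of 0.031, with 5 lower and 7 higher. The sign of that median was not stable, at -0.028 without mutant library 14, -0.027 without wild-type library 15 and -0.017 with quantile normalization, and it was 0.078 without mutant library 18. Sost, the osteocyte antagonist sclerostin, was at 147 and 193 in mutant libraries 18 and 14 against 132 and 109 in wild-type libraries 15 and 20 (log2 fold change 0.48, interval -0.099 to 1.07). It lay higher in both mutant libraries, opposite in direction to its relative Sostdc1. Bmper, a secreted BMP modulator, was at 532 and 488 in mutant libraries, against 579 and 561 in wild-type libraries. Chrdl2, related to Chrdl1, overlapped at 13.2 and 21.7 in mutant libraries, against 17.02 and 6.78 in wild-type libraries.

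The 6 receptors had a median of 0.032 (-0.033 without mutant library 18), with 2 lower and 4 higher. The type II receptor Acvr2a was at 1288 and 1360.2 in mutant libraries 18 and 14, against 1274 and 1027 in wild-type libraries 15 and 20. The type I receptor Acvr1 lay the other way, at 1186 and 1177 in mutant libraries, against 1241 and 1383 in wild-type libraries. Bmpr1b, a type I receptor of skeletal condensations, was at 262 and 296 in mutant libraries, against 272 and 213 in wild-type libraries. Its genotypes overlapped, as did those of both main receptors Bmpr1a and Bmpr2. Of 3 tested co-receptors and pseudoreceptors, the co-receptor Rgmb lay higher, at 646 and 739.9 in mutant libraries, against 599 and 517 in wild-type libraries. Its relative Rgma overlapped, at 641 and 879 in mutant libraries, against 769.6 and 589.5 in wild-type libraries. The decoy receptor Bambi overlapped too, at 1669.7 and 1372 in mutant libraries, against 1649.5 and 2129 in wild-type libraries.

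The 6 proteases that cut BMP precursors or chordin had a median of -0.15, with 3 lower without overlap, beside 14% of all tested genes. Bmp1, a metalloprotease that cleaves chordin and procollagens and is no BMP ligand despite its name, was at 7083 and 6958 in mutant libraries 18 and 14 against 8714 and 7922 in wild-type libraries 15 and 20. Pcsk5 and Pcsk6 are proprotein convertases, which cut precursors of secreted proteins. Pcsk5 was at 963 and 906 in mutant libraries, against 1184 and 1009 in wild-type libraries. Pcsk6 was at 3991 and 3958 in mutant libraries, against 4481 and 4361 in wild-type libraries. Each of the 3 had an interval that included 0.

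All 4 BMP Smads had lower means in mutant (median -0.10), and 2 did so without overlap, beside 14% of all tested genes. Smad9 was at 496 and 437 in mutant libraries, against 610.04 and 545 in wild-type libraries (log2 fold change -0.31, interval -0.69 to 0.067). Smad5 was at 3998 and 3896 in mutant libraries, against 4178 and 4001 in wild-type libraries. Smad1 overlapped, at 967 and 1119 in mutant libraries, against 1259 and 1069.6 in wild-type libraries.

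Of 8 BMP target genes, 7 had lower means in mutant, with a median of -0.22. Of these, 5 were lower without overlap (Msx2, Smad7, Msx1, Id1 and Id3), beside 14% of all tested genes. Msx2, a homeobox factor of tooth germ and skull, was at 286 and 305 in mutant libraries 18 and 14 against 473 and 550 in wild-type libraries 15 and 20. Its log2 fold change was -0.79 (interval -1.18 to -0.39; limma, unadjusted p = 0.00203, adjusted p = 0.4104). The inhibitory Smad7 was at 410.3 and 517 in mutant libraries, against 585 and 555 in wild-type libraries. Msx1, a homeobox factor of dental mesenchyme, was at 1392 and 1313 in mutant libraries, against 1402 and 1999 in wild-type libraries. The target median was -0.044 without wild-type library 20. Msx1 also belongs to the dental mesenchyme markers, so the lists are not independent.

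**Figure D4:**
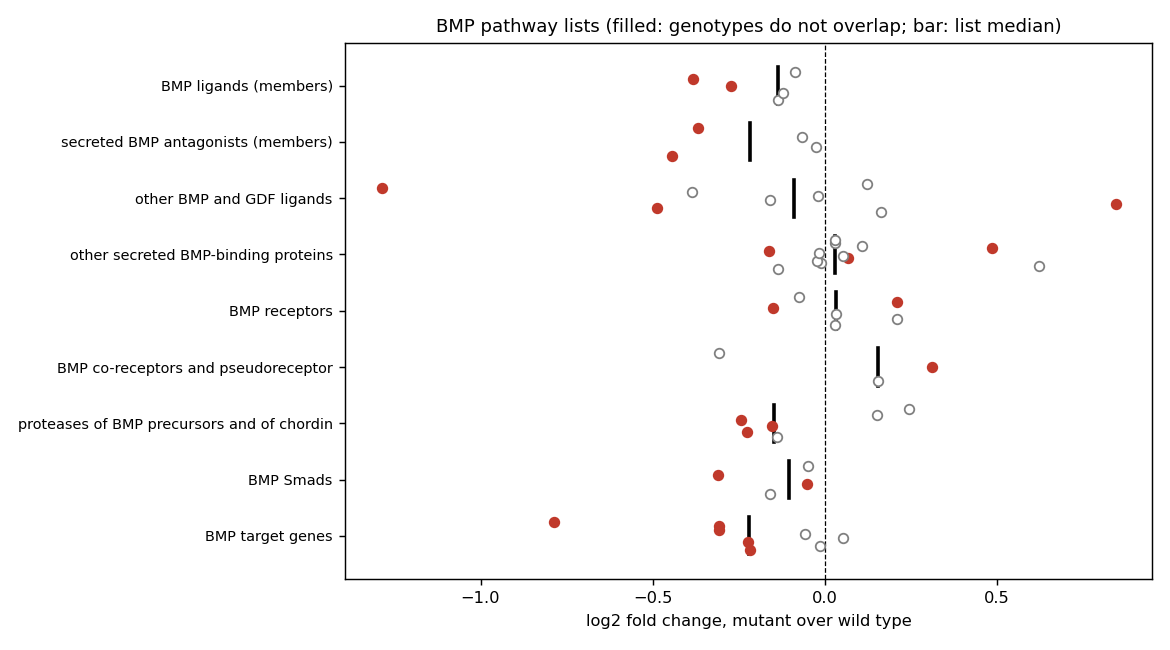
Log2 fold change, mutant over wild type (horizontal axis), of each tested gene in the 9 BMP lists; filled points are genes whose genotypes do not overlap and black bars are list medians. Medians lie between -0.22 (antagonists, and target genes) and 0.16 (co-receptors), and Gdf7 (-1.29) and Bmp8b (0.85) mark the ends.

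Summed markers of several cell types also lay apart between genotypes. Summed dental mesenchyme markers (8 of 8 in the table, including Barx1 and Dlx2) ranged from 4574 to 4912 normalized counts in mutant and from 5606 to 6995 in wild type. Cartilage markers (7 of 7) ranged from 33504 to 38454 in mutant and from 43507 to 55715 in wild type. Keratinocyte markers (8 of 8) were higher, at 138013 to 213108 in mutant against 77007 to 82231 in wild type, or 0.613% to 0.963% of the mutant totals and 0.341% to 0.368% of the wild-type totals.

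Melanocyte markers (5 of 5; Mlana at 0 in at least 1 library) summed to 196 to 264 in mutant against 93.5 to 116 in wild type. Salivary gland markers (6 of 6; Dcpp1, Dcpp2, Bpifa2 and Prol1 at 0 in at least 1 library) summed to 44.0 to 1744 in mutant against 4.98 to 20.7 in wild type. Macrophage and mast cell, neuron and Schwann cell, and immediate early and heat shock lists (6 genes each) also had higher sums in both mutant libraries. Dental epithelium (8 of 8; 4367 to 7562 in mutant, 4107 to 9990 in wild type), osteoblast (7 of 7; 74082 to 111965 in mutant, 104398 to 117142 in wild type) and smooth muscle and pericyte sums overlapped, as did those of odontoblast, skeletal muscle, endothelium and erythroid cells. A sum can hide its single markers. Ibsp, which overlapped (85314 and 52902 in mutant libraries 18 and 14, 72365 and 82268 in wild-type libraries 15 and 20), made up most of the osteoblast sum. All 7 osteoblast markers had negative log2 fold changes, and 5 were lower in mutant without overlap, beside 14% of all tested genes. Lower without overlap were also 2 of 8 dental epithelium and 1 of 4 odontoblast markers, with 0 higher in these lists. The part of these cell types in the values of Bmp4, Bmp5, Nog and Sostdc1 was not tested.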

How the data were processed

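Gene expression was measured by RNA sequencing of polyadenylated RNA with a strand-keeping kit, per the labels' protocols. Values in the deposited table are a signal per gene that the authors scaled between libraries (normalized counts), and they are not raw counts. DESeq2 and genome build mm10 are named, without versions, per the submitters' processing notes. The sources used here name no aligner, counting program, strand setting or annotation. Within 0.1 of a read, 32.0% to 34.6% of values above 0 were multiples of the commonest low value (0.950 to 1.05), so whole reads were not recovered, depth is unknown and no count model was used.

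Values were taken as log2(value + 0.5), and 17979 genes with a mean of at least 1 were fitted with limma 3.58.1 (R 4.3.3, mean-variance trend), with p-values adjusted by Benjamini-Hochberg over all of them. A fold change on this scale understates the change of low genes. The library codes are not shared between genotypes. No pair of libraries agreed within sampling noise (chi-square over degrees of freedom at least 16.5). Coordinates and exon lengths came from GENCODE M21 (GRCm38, the assembly that mm10 denotes).

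The members and lists were chosen with earlier results of these data known. Named genes are the 9 members, Ascl5, up to 3 genes per pathway list with the smallest p, the 2 nearest profiles per member, and cell type markers. One gene that this rule takes is not reported here. One listed co-receptor, Hjv, was not analysed here. Alternatives covered the pseudocount, filter, scaling, quantile normalization, trend and each library left out.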

Additional observations from a re-analysis of the deposited data

How the results depend on the processing

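No paired analysis was possible because the library codes are not shared between genotypes. In all settings that kept the 4 libraries, 0 members passed the adjusted threshold (limma). At an unadjusted p under 0.05 there were 0 to 2 members. Beside them, all tested genes at that p numbered from 755 of 17979 (quantile normalization) to 830 of 17979 (no mean-variance trend). The count of genes past the threshold over the whole table, 2, was 4 with pseudocount 1, 1 with no filter, 1 with no mean-variance trend, and 0 to 6 with a library left out. Bmp3, Bmp4, Bmp5, Nog and Sostdc1 kept their lower direction in all 9 alternatives, with ranges of -0.22 to -0.018, -0.30 to -0.24, -0.53 to -0.24, -0.57 to -0.32 and -0.53 to -0.21. Leaving out a library could not reverse Bmp4, Bmp5, Nog or Sostdc1, whose genotypes did not overlap. Changes of sign came only with a library left out: Bmp2 (0.012) without wild type 15, Bmp7 (0.066 without mutant 18, 0.11 without wild type 15), Grem1 (0.019 and 0.20 in the same fits) and Chrdl1 (0.14 without mutant 14, 0.025 without wild type 15). Over those fits Bmp2 ranged from -0.28 to 0.012, Bmp7 from -0.28 to 0.11, Grem1 from -0.26 to 0.20 and Chrdl1 from -0.27 to 0.14. With a library left out, 5 to 7 members lay lower and 0 to 1 higher without overlap. Over all tested genes, 30.6% to 33.1% lay lower without overlap in these fits. A genotype of 1 library makes overlap less likely by construction, and the lone library is assumed to vary like the others.

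The ligand minus antagonist difference of 0.027 was 0.064 with quantile normalization, 0.077 with medians and 0.13 for summed levels per kilobase, and 0.012 to 0.042 with a library left out; the cause was not tested. With a library left out, medians ranged from -0.28 to -0.21 for ligands, -0.34 to 0.066 for other ligands, -0.028 to 0.078 for other BMP-binding proteins, -0.033 to 0.12 for receptors, -0.072 to 0.38 for co-receptors, -0.29 to -0.063 for proteases, -0.18 to -0.035 for Smads and -0.31 to -0.044 for target genes. The median over all genes lay between -0.022 and 0.012 under the scalings tried. Grem1, the lowest member at 57.0 ± 2.51 in mutant and 58.8 ± 13.2 in wild type, had the widest interval.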
